A study of Homo sapiens with 4 samples.

Results

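The alternative exons of 42 genes of the membrane traffic machinery were compared between a human breast cancer line and its lung-metastatic derivative. A gene's exons were taken as members where a skipped-exon event was listed and its middle exon lay inside the gene on the same strand, by GENCODE release 29 on hg38. The rule found 172 of the 37641 listed exons, in 201 events of 41 genes, and no event was listed for SEC24A. The study compared MDA-MB-231, an established line from a triple-negative breast cancer that grows in a mesenchymal-like manner, called parental here, with MDA-LM2, a derivative of it that colonises the lung efficiently. Neither line was treated, and both were grown in a DMEM-based medium with serum. The RNA of 4 samples, 2 per line, was total RNA purified on columns with DNase, and it went into ScriptSeq v2 libraries, and the labels do not say whether the samples of a line came from separate cultures. Each line is represented by 1 table of exon inclusion that names no replicate and is read here as pooled over the samples, so no value below carries replicate error and no p-value is given.

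Proteins and lipids move between organelles in coated vesicles and tubules. COPII coats carry cargo out of the endoplasmic reticulum, COPI coats carry it back, and clathrin with its adaptors buds vesicles at the trans-Golgi network and the plasma membrane. Tethers such as the TRAPP complexes and golgins catch the arriving carrier, SNARE proteins fuse it, and retromer with sorting nexins returns receptors from endosomes. Many of these genes carry short cassette exons whose inclusion differs between tissues, and several are best known from neurons and muscle.

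An event sets the isoform with the exon against the isoform without it, between the same flanking exons. An inclusion level is the share of an event's transcripts that carry the exon, from 0 to 1, as the mean of MISO's posterior distribution. Reads of an event fall into 4 classes, those that fit the isoform with the exon alone (inclusion reads), the isoform without it alone (exclusion reads), both isoforms, or neither. Inclusion and exclusion reads together are called informative. An exon was tested where each library had at least 10 informative reads and at least 1 read of both classes was seen across the libraries. That left 120 member exons in 37 genes, 110 of them with at least 20 such reads in each library. The other 52 exons had too few reads (22), no exclusion read (21) or no inclusion read (9). SEC16A, AP2A1, TMED2 and TRAPPC6A were listed with no exon tested. Of the tested exons, 76 lay in coding sequence, 26 matched exons of non-coding or nonsense-mediated-decay transcripts only, 13 matched 5′ untranslated exons and 5 matched no annotated exon exactly.

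The exons called by the first rule given below are shown first, save a 70-nt exon of VPS37A that matched no annotated exon exactly. They are given 5′ to 3′ on the sense strand, from the GENCODE release 29 transcripts on hg38. They are the coding exon of TRAPPC1 at chr17:7931506-7931576 on the minus strand, that of GOLT1B at chr12:21506885-21506976 on the plus strand and that of EHBP1 at chr2:62987931-62988038 on the plus strand. For STX2 and GOLGA4 the annotated coding sequence ends inside the exon, and only its coding part is shown, chr12:130796043-130796120 on the minus strand and chr3:37361243-37361269 on the plus strand.
TRAPPC1, 71 nt: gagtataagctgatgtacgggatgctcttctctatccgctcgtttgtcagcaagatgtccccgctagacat
GOLT1B, 92 nt: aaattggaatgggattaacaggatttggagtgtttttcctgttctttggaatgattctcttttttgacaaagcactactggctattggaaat
EHBP1, 108 nt: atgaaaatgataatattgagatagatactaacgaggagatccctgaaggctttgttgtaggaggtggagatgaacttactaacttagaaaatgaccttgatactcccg
STX2, coding 78 nt of 126 nt: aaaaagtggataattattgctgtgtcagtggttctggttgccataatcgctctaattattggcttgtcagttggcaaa
GOLGA4, coding 27 nt of 63 nt: tttacttcacctcgcagtggtatcttc

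The short exons are the other set to see as sequence, because 15 of the 172 listed exons were at most 30 nt long, in 13 genes. Of these exons 13 lay in coding sequence, and each of those had a length divisible by 3, so skipping them keeps the reading frame. Among all tested exons 1.62% were this short, against 9 of the 120 tested members, 7.5%. Shown are 7 of those 9, AP1B1 at chr22:29329712-29329720 (minus), VPS29 at chr12:110499535-110499546 (minus), STX16 at chr20:58659623-58659634 (plus), TRAPPC13 at chr5:65655636-65655653 (plus), GOLGA4 at chr3:37337143-37337163 (plus), PICALM at chr11:85978070-85978093 (minus) and SNX14 at chr6:85538838-85538864 (minus).
AP1B1, 9 nt: gacttagag
VPS29, 12 nt: gctgggcacaga
STX16, 12 nt: gagctggacgag
TRAPPC13, 18 nt: agtgacctcagttctgtg
GOLGA4, 21 nt: gtaacaattatggagctacag
PICALM, 24 nt: aatggcatgcattttccacaatac
SNX14, 27 nt: aggtagcctaagtttggatgattttcg

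A difference was called by either of 2 rules, and neither is a test of the lines. The first used the authors' deposited table that compares the lines. Its Bayes factor weighs how well the data fit a difference against how well they fit none. The rule asked for a difference in level of 0.2 or more and a Bayes factor of 10 or more. It called 1 of the 120 member exons higher in LM2 and 5 lower, where the background over all 14109 tested exons was 0.921% higher and 0.326% lower, 1.25% in either direction. The second rule asked whether the ratio between libraries of inclusion to exclusion reads had an exact conditional 95% interval that excludes 1. It called 4 member exons higher and 9 lower, against a background of 3.17% higher and 3.04% lower, and 6.21% in either direction. The members called make 5.0% and 10.8% of those tested, above both backgrounds, but the genes were proposed with results of these data known, and members that share reads count more than once, since 38 of the tested exons shared reads and the 120 fell into 99 separate sets of reads. The 3 exons of EHBP1, GOLGA4 and STX2 were called by both rules in the same direction, which is 50.0% of the first list and 23.1% of the second. Over all tested exons 79 were called by both, 44.9% of 176 and 9.02% of 876. Intervals of read ratios here cover counting error only, and they narrow with depth. The members had a median of 86.5 informative reads in LM2 and 118.5 in parental cells, against 74 and 92 over all tested exons. The part of depth in the shares called was not tested.

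**Figure D1:**
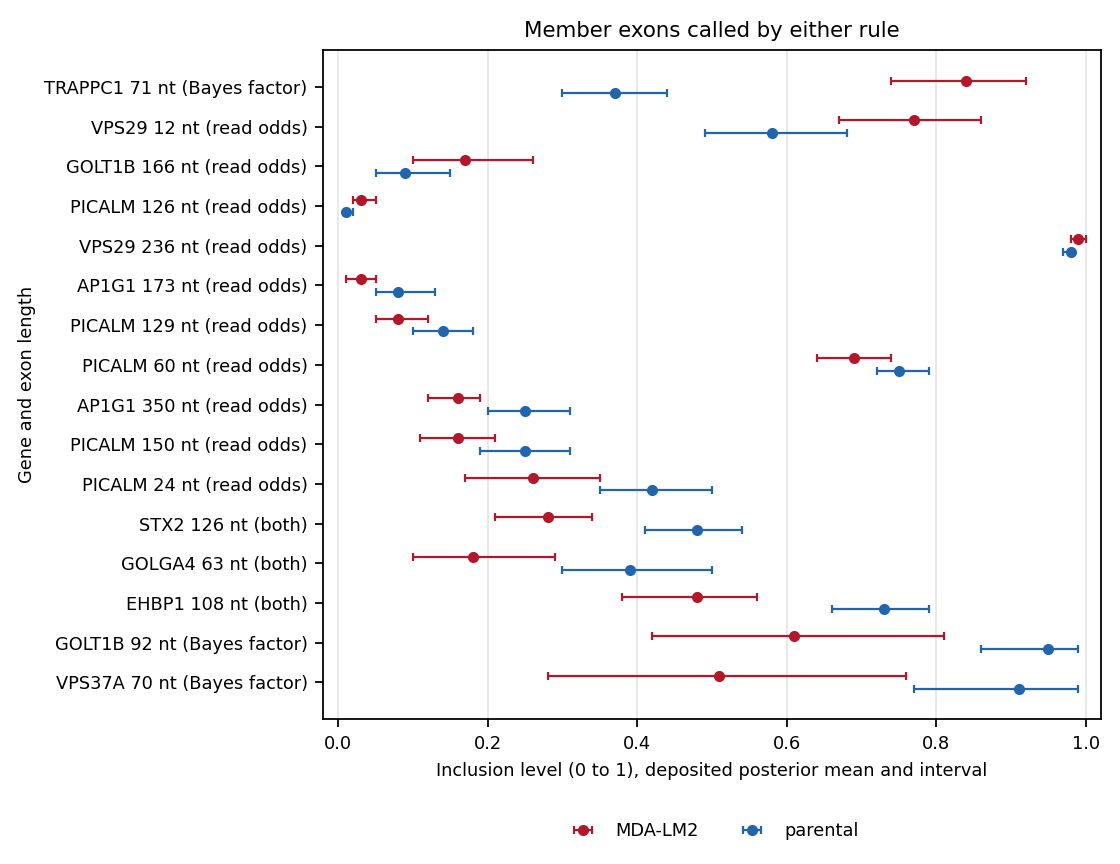
Inclusion levels (posterior means, points) with their deposited intervals (bars) of the 16 member exons called by either rule, in MDA-LM2 (red) and parental cells (blue). TRAPPC1 stands at the top with 0.84 against 0.37, and VPS37A at the bottom with 0.51 against 0.91.

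The member exons as a whole had no lean in either direction. Their median difference in level was 0 in the authors' deposited table, as over all tested exons, with 50 exons above 0, 49 below and 21 at 0. A difference of at least 0.1 in size was found for 16 members, 13.3%, against 16.6% of all tested exons. They were shorter, with a median length of 98.5 nt against 119 nt, and 55.0% had a length divisible by 3 against 41.8%. Among exons of intermediate level, from 0.1 to 0.9 in both lines, 25 of 37 members, 67.6%, kept the frame, against 44.3% of all such exons. The members were chosen, so these shares describe this list.

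**Figure D2:**
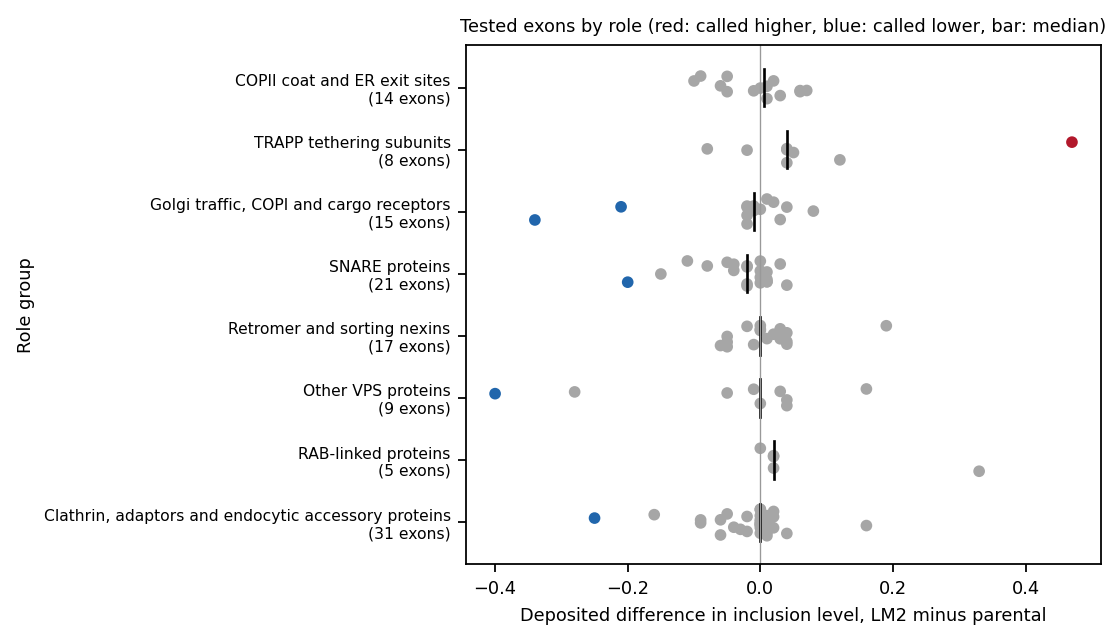
Differences in inclusion level (LM2 minus parental, x axis) of the 120 tested member exons, 1 point per exon, by role group (y axis), with the group's median as a bar. The called exons are coloured, 1 higher (red) and 5 lower (blue), and the medians lie between -0.02 and 0.04.

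Export from the endoplasmic reticulum showed no called exon. The COPII group had 14 tested exons in SEC24B, SEC24C and SEC31A, with differences from -0.10 to 0.07 in the authors' deposited table and none called by either rule. SEC31A forms the outer COPII layer and gave 11 of these exons. Those of 83, 74 and 25 nt also lie in the gene THAP9-AS1 on the same strand, so their reads cannot be assigned to SEC31A alone. Its best covered exon with intermediate inclusion, 342 nt long at chr4:82842140-82842481 on the minus strand, had a level of 0.42 in LM2 (interval 0.37 to 0.48) and 0.36 in parental cells (0.33 to 0.40). Its inclusion reads numbered 368 in LM2 and 648 in parental cells, and its exclusion reads 75 and 167. A version of it that is 297 nt long uses the same 75 and 167 exclusion reads and stood at 0.43 and 0.36. A coding SEC31A exon of 78 nt had levels of 0.82 and 0.91 from 109 and 7 reads in LM2 and 295 and 9 in parental cells. In an event that joins it to an exon further upstream, it had levels of 0.81 and 0.77. The Bayes factors of these events were 0.49 and 0.21 in the authors' deposited table, so neither gives it a clear direction. SEC24C, which binds cargo, had a 5′ untranslated exon of 87 nt at 0.46 and 0.40.

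The TRAPP tether gave the exon with the largest difference among the members. TRAPPC1, a core subunit shared by the TRAPP complexes, had its 71-nt coding exon at a level of 0.84 in LM2 (interval 0.74 to 0.92) and 0.37 in parental cells (0.30 to 0.44). The authors' deposited table gives the difference of 0.47 a Bayes factor at its cap of 1e+12. Behind it stood 156 reads of inclusion and 4 of exclusion in LM2, against 105 and 1, while reads that fit both isoforms numbered 335 and 663. Scaled to 1000000 listed reads (RPM), inclusion reads were 1.93 times the parental value (95% interval 1.50 to 2.50) and reads that fit both isoforms 0.657 times. Exclusion reads, the only class that shows a transcript without the exon, were nearly absent in both libraries, and the log2 ratio of read odds was -1.02 with an interval from -7.06 to 1.94. Its sign is opposite to that of the deposited difference. Whether the level reflects a transcript that skips the exon was not tested.

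The other TRAPP exons differed less. TRAPPC10 had an exon of non-coding transcripts, 116 nt long, at 0.42 in LM2 and 0.30 in parental cells, with 26 and 10 reads against 26 and 17. The 18-nt exon of TRAPPC13 was at 0.77 and 0.79, and the 27-nt exon of TRAPPC9 at 0.53 and 0.61. Both short exons were thus carried by a good part of their events' transcripts in either line, with intervals that overlapped broadly. TRAPPC2, the small subunit mutated in a skeletal dysplasia, had its best covered tested exon at 0.92 and 0.88.

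Golgi proteins gave called exons in GOLT1B and GOLGA4, both lower in LM2. GOLT1B encodes a small membrane protein of Golgi vesicle transport. Its 92-nt coding exon had a level of 0.61 in LM2 (0.42 to 0.81) and 0.95 in parental cells (0.86 to 0.99) (Bayes factor 127.53 per the authors' deposited table). The reads were 41 inclusion and 1 exclusion in LM2 and 93 and 0 in parental cells. A further event of the same exon with another downstream exon gave 0.37 and 0.78, from 25 and 1 reads against 53 and 1. Inclusion reads in RPM were 0.573 times the parental value (0.387 to 0.836), and reads that fit both isoforms 1.35 times, so here too the level moved with few exclusion reads. An exon of GOLT1B found in non-coding or decay-prone transcripts, 166 nt at chr12:21507944-21508109 on the plus strand, was called by read odds as higher. Its levels were 0.17 and 0.09, its reads 16 and 16 in LM2 against 14 and 40, and its log2 ratio of read odds 1.48 (0.04 to 2.99).

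GOLGA4 is a long coiled-coil golgin that is held at the trans-Golgi network by a domain near its C-terminal end. Its 63-nt exon, in which the coding sequence of 1 annotated transcript ends, had a level of 0.18 in LM2 (0.10 to 0.29) and 0.39 in parental cells (0.30 to 0.50). The authors' deposited table gives it a Bayes factor of 14.71. Inclusion reads numbered 10 against 43 and exclusion reads 23 against 36, and inclusion reads in RPM were 0.302 times the parental value (0.135 to 0.611) where exclusion reads were 0.830 times (0.470 to 1.44). In LM2 exclusion reads thus outnumbered inclusion reads, and in parental cells they did not. By mean level, the form without the exon was the more common one in both lines. The log2 ratio of read odds was -1.42 (-2.87 to -0.11). The 21-nt exon of GOLGA4 was carried by most transcripts of its event in either line, at 0.90 and 0.92. COPZ1, a subunit of the COPI coat, had its 5 tested exons between 0.85 and 1.00 in both lines. For TMED2, a receptor that loads cargo into COPI and COPII vesicles, a 21-nt exon had no inclusion read among 739 and 887 informative reads. That allows inclusion reads up to 0.406% of the informative reads in LM2 and 0.338% in parental cells.

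Among the SNARE proteins, STX2 had the clearest difference. Syntaxins such as STX2 and STX3 are anchored in the plasma membrane by a segment at their C-terminal end, and both genes can end in different last coding stretches. The 126-nt exon of STX2, which carries 78 nt of a C-terminal end and the stop, had a level of 0.28 in LM2 (0.21 to 0.34) and 0.48 in parental cells (0.41 to 0.54) (Bayes factor 1373.09 per the authors' deposited table). Its inclusion reads numbered 47 and its exclusion reads 80 in LM2, against 147 and 114 in the parental library. The 2 libraries thus differed in which class had more reads, as for GOLGA4. By mean level, the form without the exon was still the more common one in both lines, though the parental interval reached 0.54. The inclusion reads in RPM were 0.416 times the parental value (0.293 to 0.581) and the exclusion reads 0.912 times (0.677 to 1.22), with a log2 ratio of read odds of -1.13 (-1.80 to -0.47). Its difference in the authors' deposited table, -0.20, lies at the smallest size the first rule accepts.

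STX3 had an exon of the same kind, 114 nt with 81 nt of coding sequence, whose level was 0.34 in LM2 (0.23 to 0.47) and 0.49 in parental cells (0.37 to 0.60). It was not called, its Bayes factor being 0.85 per the authors' deposited table, and it rested on 2 exclusion reads in each library beside 35 and 55 inclusion reads. SNAP23, the partner of these syntaxins at the plasma membrane outside neurons, had its 159-nt exon at 0.92 and 0.96. STX16, a SNARE of the trans-Golgi network, had its 12-nt exon at 0.61 and 0.69 from 16 and 24 informative reads, with intervals from 0.38 to 0.84 and 0.47 to 0.86. All 6 tested exons of STX16 also lie in the read-through gene STX16-NPEPL1, and their reads cannot be told apart. SEC22C, a protein of the early secretory pathway related to the SNARE SEC22B, had a 216-nt exon of non-coding transcripts at 0.09 and 0.14, from 23 and 22 reads in LM2 and 79 and 41 in parental cells.

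Retromer gave the short exon with the largest difference among the 9 tested. VPS29 is the small core subunit of retromer, and its 12-nt exon near the start of the coding sequence was at 0.77 in LM2 (0.67 to 0.86) and 0.58 in parental cells (0.49 to 0.68). It fell just short of the first rule, where the authors' deposited table gives a difference of 0.19 and a Bayes factor of 6.31. Inclusion reads numbered 73 and 75, close to the same in the libraries before scaling, and exclusion reads 16 against 39. The log2 ratio of read odds was 1.22 (0.23 to 2.31), so the second rule called it higher. Another 3 VPS29 exons between the same flanking exons, of 40, 90 and 180 nt, use the same 16 and 39 exclusion reads, with levels between 0.07 and 0.13 in both lines and no call. A coding VPS29 exon of 236 nt at chr12:110492996-110493231 on the minus strand was near complete inclusion in both lines, 0.99 and 0.98, and its few exclusion reads, 9 against 34 beside 1752 and 2355 inclusion reads, also gave a call (log2 ratio 1.43, 0.40 to 2.74).

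VPS35, the large scaffold of retromer, had a 149-nt exon with no exclusion read beside 1028 and 1333 inclusion reads. A count of 0 allows exclusion reads up to 0.292% of the informative reads in LM2 and 0.225% in parental cells. This limit is a share of reads and not of transcripts, and the share of transcripts that skip the exon can be larger. Its 2 tested exons belong to non-coding transcripts and stood at 0.01 to 0.02. The sorting nexins SNX1, SNX2 and SNX14 had no call by either rule. SNX14, a tether of endoplasmic reticulum and lipid droplets that is mutated in a cerebellar ataxia, had its 27-nt exon at 0.14 (0.09 to 0.22) and 0.19 (0.13 to 0.25) and an 88-nt exon at 0.50 and 0.56.

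**Figure D3:**
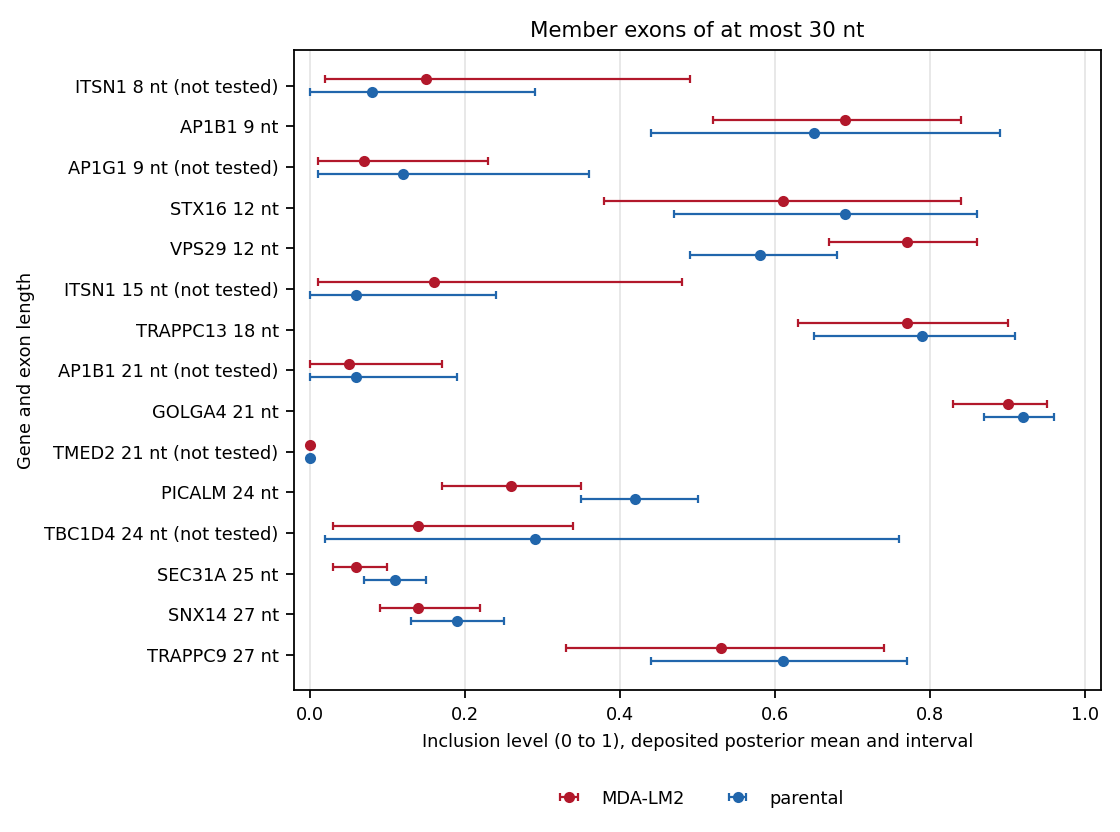
Inclusion levels (posterior means, points) with deposited intervals (bars) of the 15 member exons of at most 30 nt, in MDA-LM2 (red) and parental cells (blue), ordered by length. Of the 9 tested, VPS29 (0.77 against 0.58) and PICALM (0.26 against 0.42) were called by read odds.

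The remaining VPS proteins gave 1 called exon. VPS37A is a subunit of ESCRT-I, which sorts ubiquitinated cargo into endosomes. A 70-nt exon of it had a level of 0.51 in LM2 (0.28 to 0.76) and 0.91 in parental cells (0.77 to 0.99) (Bayes factor 17.05 per the authors' deposited table). This exon matched no annotated exon exactly and overlaps a coding exon that is 75 nt long and ends at the same base. It had 10 inclusion reads and 1 exclusion read in LM2 and 37 and 0 in parental cells, the fewest of the called exons. The 75-nt version, which shares the exclusion reads, had levels of 0.91 and 0.96 from 37 and 1 reads and 64 and 0 reads. Inclusion reads of the 70-nt version were 0.351 times the parental value in RPM (0.156 to 0.721) and those of the 75-nt version 0.751 times (0.487 to 1.14).

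VPS13B and VPS13D are large proteins that move lipids between membranes. A 67-nt coding exon of VPS13B was at 0.52 in LM2 (0.32 to 0.73) and 0.80 in parental cells (0.65 to 0.95), with 15 and 5 reads against 27 and 2. In the authors' deposited table its Bayes factor was 2.73, so it was not called despite a difference of -0.28. VPS41, a subunit of the HOPS tether of late endosomes, had a 39-nt exon at 0.96 and 0.92.

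Proteins linked to RAB GTPases had 5 tested exons and no call. TBC1D1 and TBC1D4 switch off RAB proteins that bring glucose transporter vesicles to the cell surface, and both have a long form best known from muscle. Their tested cassette exons were low in both lines. TBC1D1 exons of 120 and 39 nt were at 0.10 and 0.08, and at 0.09 and 0.07, and a TBC1D4 exon of 165 nt was at 0.06 and 0.04. A 24-nt exon of TBC1D4 had no informative read. RAB11FIP3, an effector of RAB11 in recycling and cytokinesis, had a 135-nt coding exon at 0.65 and 0.32 from 14 and 2 reads against 10 and 3. This exon is named here after its values were seen, its Bayes factor being 2.6 in the authors' deposited table. Beside that of VPS13B it was the only tested exon with a difference of at least 0.2 and no call. Untested exons of SNX1, ITSN1 and SEC24C also had differences of that size.

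The clathrin group held 31 tested exons in 9 genes, and 8 of the 13 exons called by read odds. That is 25.8% of the group, against 6.21% of all tested exons, and the 8 were 5 exons of PICALM, 2 of AP1G1 and 1 of EHBP1. The 5 of PICALM came from 4 separate sets of reads and those of AP1G1 from 1. The group's exons were also better covered, with a median of 150 informative reads in LM2 and 167 in parental cells. Over all tested exons the medians were 74 and 92. More reads give narrower intervals, and the part of depth in the group's share was not tested. EHBP1, which links endocytosis to actin, had the exon with the most informative reads among those called by the first rule. Its 108-nt coding exon was at 0.48 in LM2 (0.38 to 0.56) and 0.73 in parental cells (0.66 to 0.79) (Bayes factor 52477.3 per the authors' deposited table). Inclusion reads numbered 98 in LM2 and 247 in parental cells, and exclusion reads 34 and 30. Inclusion reads in RPM were 0.516 times the parental value (0.404 to 0.654) and exclusion reads 1.47 times (0.875 to 2.49). The inclusion class was thus lower beyond counting error, while the interval of the exclusion class included 1. The log2 ratio of read odds was -1.51 (-2.35 to -0.68). The 69-nt exon of EHBP1 was at 0.40 and 0.38.

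PICALM, an adaptor that gathers clathrin and sorts SNARE proteins at the plasma membrane, had 5 of its 9 tested exons called by read odds, where the background was 6.21% and 2 of the 5, of 129 and 150 nt, rest on the same exclusion reads. Its 24-nt exon was at 0.26 in LM2 (0.17 to 0.35) and 0.42 in parental cells (0.35 to 0.50), from 26 and 46 reads against 88 and 79. Inclusion reads in RPM were 0.384 times the parental value (0.238 to 0.601) and exclusion reads 0.757 times (0.514 to 1.10), and the log2 ratio of read odds was -0.97 (-1.86 to -0.11). Its Bayes factor was 4.86 in the authors' deposited table, under the first rule's 10. The 60-nt exon beside it stood at 0.69 and 0.75, from 328 and 77 reads against 765 and 128, with a log2 ratio of -0.49 (-0.95 to -0.02). A further pair of nested coding exons of PICALM, printed here to show the choice between their start sites, share their exclusion reads, 69 in LM2 and 64 in the parental library. The 21 capitals mark the bases that the 150-nt version at chr11:85990250-85990399 on the minus strand has and the 129-nt version lacks.
PICALM, 150 nt: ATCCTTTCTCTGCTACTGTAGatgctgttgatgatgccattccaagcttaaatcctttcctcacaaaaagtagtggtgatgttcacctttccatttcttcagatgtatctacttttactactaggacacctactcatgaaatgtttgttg

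The 150-nt version was at 0.16 and 0.25 with 35 and 74 inclusion reads, a log2 ratio of read odds of -1.18 (-2.00 to -0.38). The 129-nt version was at 0.08 and 0.14 with 15 and 33 inclusion reads, a ratio of -1.22 (-2.36 to -0.17). Of the 5 PICALM exons called, 4 were thus coding and lower in LM2. The exception was a 126-nt exon of non-coding transcripts, at 0.03 and 0.01, which was higher with 21 and 129 reads against 17 and 257 (1.29, 0.25 to 2.36). PICALM's reads at its best covered event were also lower in LM2, with a ratio of 0.591 (0.575 to 0.608). An 83-nt exon of PICALM at 0.94 and 0.78 had only 2 and 1 exclusion reads and no call.

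The adaptor AP1G1, a large subunit of the AP-1 complex of the trans-Golgi network, had calls in its 5′ untranslated region. Exons of 350 and 173 nt were at 0.16 and 0.25, and at 0.03 and 0.08. Both rest on the same exclusion reads, 178 in LM2 and 71 in the parental library, and in RPM these were 3.26 times the parental value (2.46 to 4.35). Inclusion reads of the 350-nt exon were 74 in each library, 1.30 times after scaling (0.929 to 1.82), so it was the exclusion class that differed. The log2 ratios of read odds were -1.32 (-1.97 to -0.68) and -1.99 (-3.56 to -0.57). A further event joins the 350-nt exon to another upstream exon. Its levels were 0.54 and 0.44, from 72 and 1 reads against 74 and 2. With so few exclusion reads, and 0.43 as its Bayes factor per the authors' deposited table, that event gives no clear direction. AP1B1, the partner subunit, carried its 9-nt exon at 0.69 (0.52 to 0.84) and 0.65 (0.44 to 0.89).

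Clathrin light chains and several adaptors have exons that neurons include, and these had few or no inclusion reads in either line. In CLTA a 54-nt exon had 4 inclusion reads beside 627 exclusion reads in LM2 and 1 beside 390 in the parental library, and a 36-nt exon 2 and 1 beside the same exclusion reads. In CLTB the 54-nt exon had 4 inclusion reads and 508 exclusion reads in LM2, against 0 and 360. AP2A1 had no inclusion read for its 66-nt exon among 58 and 85 informative reads, which allows up to 5.17% and 3.53% of these reads. The 15-nt exon of ITSN1, an endocytic scaffold, had none among 5 and 10, which allows up to 60% and 30% of these reads. The light chain exons, at chr9:36209267-36209320 on the plus strand and chr5:176396479-176396532 on the minus strand, are of equal length and are printed because they can be aligned base by base. Capitals mark the 35 of 54 positions that are identical, 64.8%.
CLTA, 54 nt: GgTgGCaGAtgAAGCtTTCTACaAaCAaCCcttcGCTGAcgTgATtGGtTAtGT
CLTB, 54 nt: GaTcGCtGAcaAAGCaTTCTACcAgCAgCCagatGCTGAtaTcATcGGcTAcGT

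The opposite case within CLTA is a 118-nt coding exon that was at 1.00 in both lines, with 2350 and 2900 inclusion reads and 5 and 4 exclusion reads. AP2B1, the beta subunit of the plasma membrane adaptor AP-2, had an intermediate 42-nt coding exon at 0.23 and 0.25 from 52 and 86 reads against 88 and 150. EPN1, an adaptor that bends the membrane, had a 75-nt exon at 0.96 and 0.94. ITSN1 had 2 events that were listed in parental cells only, of 213 and 122 nt, and no comparison was made for them.

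**Figure D4:**
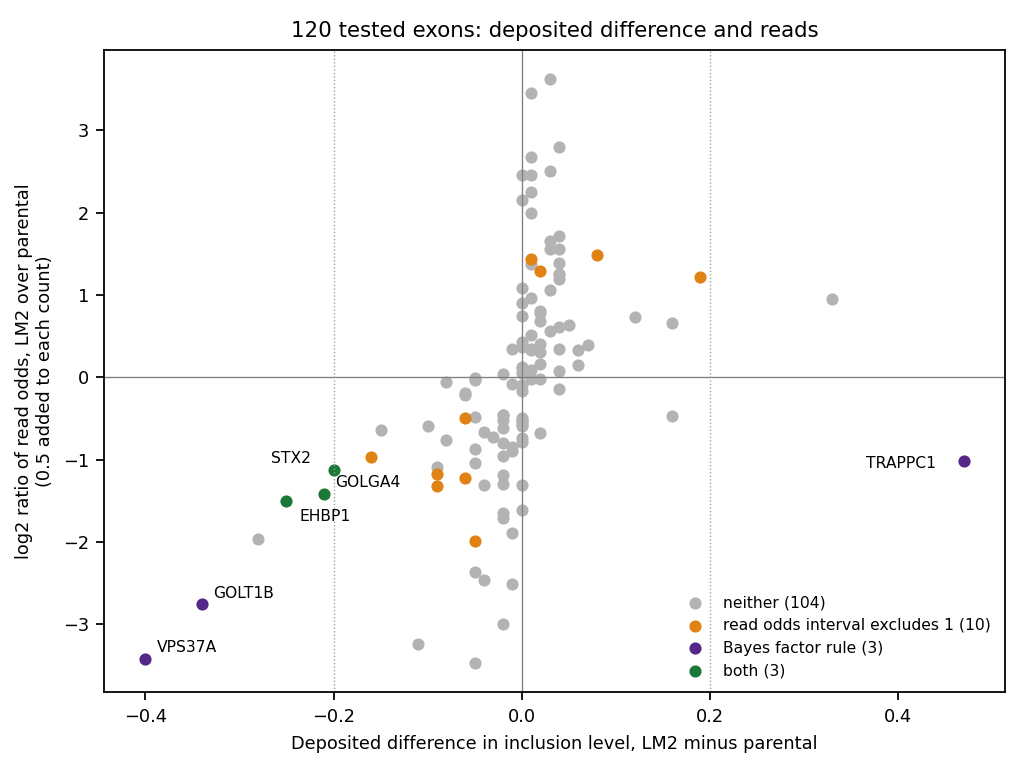
Deposited difference in inclusion level (x axis, LM2 minus parental, dotted lines at -0.2 and 0.2) against the log2 ratio of inclusion to exclusion reads (y axis, LM2 over parental) for the 120 tested exons, 1 point each. TRAPPC1 lies alone in the lower right at 0.47 and -1.02, while EHBP1, GOLGA4 and STX2 (green) are below 0 on both axes.

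The reads and the deposited levels were set side by side for all members. For the 99 member exons with a deposited difference other than 0, the log2 ratio of read odds had the same sign in 91. Over all tested exons the sign was the same in 10218 of 11706. Of the 6 exons called by the first rule, TRAPPC1, GOLT1B and VPS37A had at most 4 exclusion reads in either library, and their read odds intervals included 1. EHBP1, GOLGA4 and STX2 had between 23 and 114 exclusion reads in each library.

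Reads per gene were compared at each gene's best covered event, in RPM. A gene was called with a ratio of at least 2-fold in either direction and a 95% interval that excludes 1. Of the 41 listed member genes 2 were higher in LM2 and 1 lower, where the background over 11680 genes was 2.36% higher and 9.73% lower. The median gene of the whole table had a ratio of 0.917, a log2 shift of -0.12, and the median member 0.952. Event reads include those that fit neither isoform, so these ratios are not transcript levels.

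AP1B1 had 842 reads in LM2 and 518 in parental cells, 12.3 and 5.80 RPM, a ratio of 2.11 (1.89 to 2.36). By reads that fit at least 1 isoform the ratio was 1.9991 and no longer passed, and relative to the median gene it was 2.30. TBC1D4 had 1475 and 915 reads, a ratio of 2.10 (1.93 to 2.28), or 1.93 by reads that fit an isoform and 2.28 relative to the median gene. Its relative TBC1D1 went the other way, with 1271 reads in LM2 and 3367 in parental cells, a ratio of 0.491 (0.460 to 0.524). By fitting reads that ratio was 0.422, and relative to the median gene 0.535, short of 2-fold. The pair of related RAB regulators thus lay at opposite ends of the members' range, each with low inclusion of its cassette exons in both lines.

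Below the line for a call, VPS13D had a ratio of 0.515 (0.468 to 0.567), or 0.478 by fitting reads, which would be called. PICALM at 0.591, TRAPPC2 at 0.610 (0.554 to 0.670), SEC31A at 0.621 (0.596 to 0.648), SEC24B at 0.651 (0.615 to 0.689) and SEC22C at 0.659 (0.629 to 0.690) were also lower. On the higher side were AP1G1 at 1.53 (1.42 to 1.65), TRAPPC13 at 1.51 (1.38 to 1.66), CLTB at 1.50 (1.42 to 1.58) and VPS41 at 1.41 (1.29 to 1.54). The genes of the exons called by the first rule were closer to 1. They were EHBP1 at 0.845, STX2 at 0.869, GOLGA4 at 0.869, TRAPPC1 at 0.870, VPS37A at 0.952 and GOLT1B at 1.17. With inclusion plus exclusion reads only, TRAPPC1 turned to a higher value, a log2 ratio of 0.82 in place of -0.20, and STX2 moved from -0.20 to -0.81, GOLGA4 from -0.20 to -0.65 and VPS37A from -0.07 to -0.52. How replicates of a line vary is not shown by these pooled tables, so a ratio of this size can lie within that variation.

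**Figure D5:**
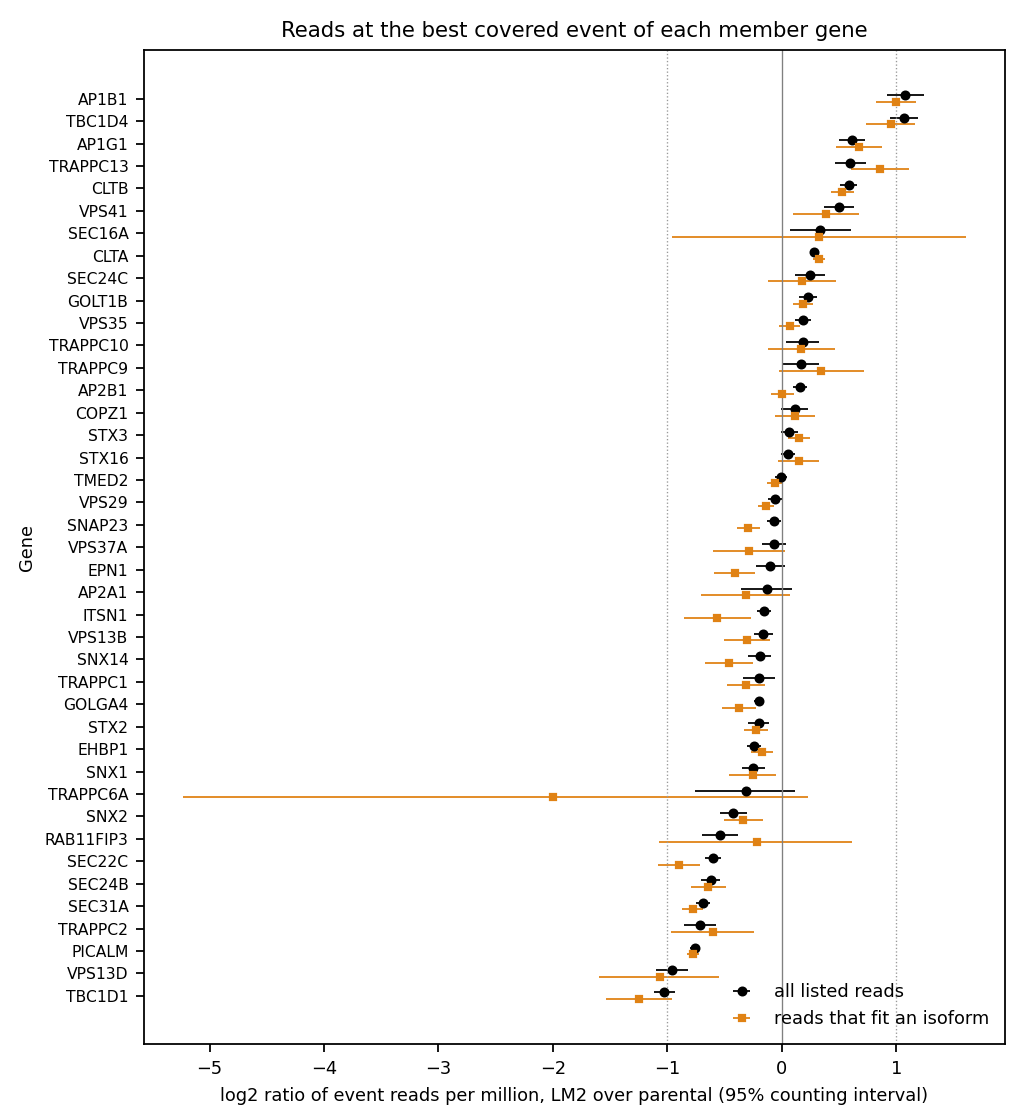
Log2 ratio (x axis, LM2 over parental) of RPM at the best covered event of each of the 41 listed member genes (y axis), by all listed reads (black) and by reads that fit an isoform (orange), with 95% counting intervals. TBC1D4 and AP1B1 lie past 1 at the top by all listed reads, and TBC1D1 past -1 at the bottom.

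Other genes of the same pathways were described through a list of 272 that are not members, with 427 tested exons in 171 genes. The first rule called 5 of these exons higher in LM2 and 0 lower, 1.17%, and the second 16 higher and 8 lower. SNX7, a sorting nexin, had a 120-nt exon at 0.47 and 0.25 with 70 and 41 reads against 34 and 47. The other 4 were in SNX5 (0.68 and 0.42), RAB10 (0.99 and 0.74), MCFD2 (0.98 and 0.70) and RAB11FIP5 (0.87 and 0.62). Those of SNX5, RAB10 and MCFD2 had at most 2 exclusion reads in a library and a read odds ratio of opposite sign, as in TRAPPC1. By reads per gene 3 of 218 genes were at least 2-fold higher, namely AMPH (4.27), FCHO1 (2.41) and TBC1D8 (6.77), and 5 lower, namely AP1S2 (0.433), SEC16B (0.463), SEC31B (0.407), SNAP91 (0.369) and SNX10 (0.373).

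Over the whole series 68691146 reads were listed for LM2 and 89285093 for the parental line, of which 74.7% and 75.7% fit neither isoform of their event. Markers of a mesenchymal-like breast cancer line were listed for 6 of 8 genes and summed to 1291 and 1577 RPM, with 5 of them lower in LM2, among them ITGB1 at 459 and 728 RPM and CD44 at 647 and 680, and EGFR higher at 58.9 and 25.3 RPM. The luminal and epithelial list had 8 of 11 genes and 197 and 146 RPM. KRT8 carried that sum with 177 and 106 RPM, and ESRP2 was also higher in LM2, with a ratio of 1.91 (1.67 to 2.19). The other 6 of the 8, ESR1, PGR, GATA3, ERBB2, ESRP1 and CDH1, were lower in LM2 with ratios from 0.247 to 0.760. The interval of CDH1 included 1 (0.495 to 1.15). ESR1 and PGR had at most 2 reads that fit an isoform in either library, so their ratios rest on reads that fit neither. Of the other lists, the immune list had 1 of 5 genes with 0.320 and 0.706 RPM, the fibroblast list 1 of 3 with 8.73 and 11.6, and the endothelial list 0 of 3. A gene without a skipped-exon event is not listed here whatever its level. The part of these lists in the members' differences was not tested.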

How the data were processed

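Per the submitters' processing notes the reads were aligned with STAR 2.7, and the build is hg38. Per the file headers MISO quantified the skipped-exon events. For its version, settings, interval level, event annotation and the pooling of samples, the sources used here give nothing. Each inclusion level in the deposited tables is a fraction with an interval, beside raw counts of reads in 4 classes. The bounds of that deposited interval are held as a score on the same scale. The authors' deposited comparison gives the difference as a score, LM2 minus parental, and the Bayes factor as a ratio, which the file caps. Each table holds at least 20 reads per listed event.

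From these, exons were assigned to genes with GENCODE release 29, and the event with most inclusion plus exclusion reads stood for its exon. Read odds ratios had 0.5 added to each count, while their exact conditional 95% intervals and those of read ratios used the counts as they were (Python 3.11.15, SciPy 1.17.1). The method was checked on simulated data. Exons were named if called, of at most 30 nt, or in each role group the best covered one and up to 3 with the largest differences and at least 20 informative reads in each library. Genes were named for a ratio of 2-fold or more. Exons and gene ratios in the text that meet none of these rules were chosen after their values were seen. Members, lists and rules were chosen with earlier results of these data known. Reads from overlapping genes on the same strand cannot be told apart, which concerns 18 tested exons. Alternatives changed the thresholds, the read minimum, the choice of event and the scaling.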

Additional observations from a re-analysis of the deposited data

How the results depend on the processing

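The 1 exon called higher (TRAPPC1) was called under every alternative threshold, read minimum and choice of event tried, but asking also for a read-based change of 0.1 in the same direction left 0. Of the 5 called lower, a Bayes factor of at least 20 kept 3 (EHBP1, GOLT1B and STX2), and the other alternatives gave 4 to 6. A 99% interval reduced the 13 exons called by read odds to 6. For genes at least 2-fold higher, reads that fit an isoform gave 0 and summing over all events of a gene gave 1, against 2. For genes at least 2-fold lower, centring on the median gene gave 0 and fitting reads gave 2, against 1. With inclusion plus exclusion reads only, SEC22C took the place of TBC1D1 and AP1G1 that of AP1B1. No called gene ratio changed direction under these alternatives. Among exons, the AP1G1 350-nt exon called lower by read odds was higher in LM2 in its other event. The read odds of TRAPPC1 had the opposite sign to its deposited difference. With inclusion plus exclusion reads only, the ratio of 9 of the 40 member genes with a value changed sign. They were AP2B1, CLTA, RAB11FIP3, STX16, STX3, TRAPPC1, TRAPPC10, TRAPPC9 and VPS35. On centring, that of 5 of 41 changed sign (EPN1, SNAP23, TMED2, VPS29 and VPS37A). None of these genes was called. The causes of these changes were not tested.

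No paired analysis was possible because the tables hold 1 value per line and no replicate columns, and leaving out each replicate could not be run for the same reason. The calls of TRAPPC1, GOLT1B and VPS37A rest on at most 4 exclusion reads in a library, and VPS37A was no longer called with at least 20 informative reads required in each library.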
